A study of Mus musculus with 4 samples.

Results

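A set of 10 genes of the TGF-beta and BMP signalling route was followed in mouse blood stem and progenitor cells after knockdown of the microRNA miR-99. They were chosen by name with earlier results of these data known. The set holds the ligand Tgfb1, the receptors Tgfbr1, Tgfbr2, Tgfbr3 and Bmpr2, and the signal carriers Smad2, Smad3, Smad4, Smad5 and Smad7. All 10 were found among the 45232 gene rows of the count files and all 10 passed the filter on low counts, which kept 15320 genes for testing. RNA came from sorted GFP-positive LSK cells, a fraction rich in stem cells and early progenitors that lacks lineage markers and carries Kit and Sca-1, taken from mice 3 months after they had been transplanted with GFP-positive long-term haematopoietic stem cells. The donor cells were Scr cells in the control group and miR-99 KD cells in the other, with 2 mice and 2 libraries on each side, named Scr 1, Scr 2, KD 1 and KD 2 here. The comparison asks how the knockdown group differs from the control group in RNA level. Neither strain, age nor vector is given in the sources used here. Counts per gene do not measure mature miR-99, so the knockdown itself was not checked here. The link from mouse to library is not given either, so p-values measure the spread between these libraries.

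TGF-beta is secreted in a latent form and, once released, binds the type II receptor encoded by Tgfbr2, which recruits and activates the type I receptor encoded by Tgfbr1. The activated type I receptor phosphorylates Smad2 and Smad3, whereas receptors for bone morphogenetic proteins (BMPs) act through Smad1, Smad5 and Smad9. The phosphorylated Smads join Smad4, enter the nucleus and regulate transcription, and Smad7 and Smad6 feed back to block the receptors. In bone marrow, TGF-beta is known for holding haematopoietic stem cells out of the cell cycle.

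The mature microRNAs of the miR-99 family are shown because their seed, bases 2 to 8, decides which messages they can pair with. Sequences are from RefSeq on build GRCm38.p6, with the seed in capitals.
mmu-miR-99a-5p: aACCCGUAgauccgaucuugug
mmu-miR-99b-5p: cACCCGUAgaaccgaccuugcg
mmu-miR-100-5p: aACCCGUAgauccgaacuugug
All 3 share the seed ACCCGUA, whose match in a message is TACGGGT in DNA letters. None of the 10 genes held this match in its longest annotated 3′ untranslated region, against 1.41% of the 12810 tested genes with such a region. The shorter match to bases 2 to 7, ACGGGT, was found once, in Bmpr2, against 6.92% of the tested genes. Its surroundings in the Bmpr2 transcript, with the match in capitals, are given next.
Bmpr2 site: tgtcttgttaACGGGTatcttttg
The lack of the match to bases 2 to 8 in these regions says nothing about sites elsewhere in the messages or about indirect effects.

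The promoters of Tgfbr1 and Tgfbr2, from 250 bases before to 50 bases after the annotated start, are shown because these receptor partners were the genes of the set with the lowest p-values. The GC box GGGCGG, which Sp-family factors bind, was searched on both strands and is in capitals. Tgfbr1 is at chr4:47352972-47353271 on the plus strand and Tgfbr2 at chr9:116175314-116175613 on the minus strand, both on GRCm38.p6 from RefSeq.
Tgfbr1: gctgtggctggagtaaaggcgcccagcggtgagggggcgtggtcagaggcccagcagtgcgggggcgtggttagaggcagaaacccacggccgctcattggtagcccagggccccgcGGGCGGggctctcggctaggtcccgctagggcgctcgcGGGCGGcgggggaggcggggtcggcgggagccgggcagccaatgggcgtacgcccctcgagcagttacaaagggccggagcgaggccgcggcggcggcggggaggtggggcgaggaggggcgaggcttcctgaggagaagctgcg
Tgfbr2: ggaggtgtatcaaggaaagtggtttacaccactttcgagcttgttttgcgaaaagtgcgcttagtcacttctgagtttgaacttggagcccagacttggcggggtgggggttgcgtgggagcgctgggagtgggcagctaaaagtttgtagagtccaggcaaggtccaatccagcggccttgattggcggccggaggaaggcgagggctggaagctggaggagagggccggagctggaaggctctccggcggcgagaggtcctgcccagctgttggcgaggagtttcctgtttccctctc
The printed Tgfbr1 window held 2 GC boxes, a second annotated Tgfbr1 start 0, and the Tgfbr2 window 0, against at least 1 in 60.1% of 13677 promoters of tested genes. With 34 CpG dinucleotides the printed Tgfbr1 window lay above the median of 20 per promoter. The window at the second Tgfbr1 start had 3, and that of Tgfbr2 had 15. The TATA box TATAAA, present in 7.46% of promoters, and the Smad palindrome GTCTAGAC, present in 0.241%, were in neither window and in no promoter of the other genes with one. Among the 6 of the 10 genes with a promoter in the table, Tgfb1 had 6 GC boxes, Smad3 2 and Bmpr2 1, and the 3 annotated Smad5 starts had 1, 1 and 7. These letter matches are descriptions of sequence, not of binding.

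Gene counts per library ran from 27295197 to 32350590, and the 10 genes had between 205 and 5062 counts in a library. Kit, Ly6a (which encodes Sca-1), Cd34 and Flt3 were detected in every library, and Kit stood at 670.3 to 1280 CPM (CPM, read counts scaled to a library total of 1000000 with TMM factors). Genes listed as neutrophil and B cell markers were detected too. The summed CPM of 8 neutrophil markers was 28550 in KD 1 against 5103 to 7976 in the other libraries, and that of 8 B cell markers was 259 against 37.1 to 77.6. Of the B cell markers 4 were higher in both KD libraries and 0 lower, against 24.5% and 26.0% of all genes tested. DESeq2 called 3 of the 7 with an adjusted p higher at 0.05, against 2.04% of all such genes. Values without KD 1 are given beside some, not all, of the genes whose call, sign or size they change. In bulk RNA, fewer cells of a type and less RNA per cell cannot be told apart.

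Both signalling TGF-beta receptors were lower in the KD libraries, the ligand was higher, and 4 of the 5 Smads were lower. None of these differences passed the test over all genes. Because the genes were chosen with earlier results known, the counts below are descriptions and not a test of the set. Of the 10 genes, 6, namely Tgfbr1, Tgfbr2, Smad3, Smad4, Smad5 and Smad7, were lower in both KD libraries than in both Scr libraries, against 26.0% of all genes tested. Tgfb1 was higher in both, against 24.5% of all genes, and Tgfbr3, Bmpr2 and Smad2 overlapped. By the quasi-likelihood test of edgeR, adjusted after Benjamini and Hochberg, 0 of the 10 and 0% of all genes passed an adjusted p of 0.05. At an unadjusted p under 0.05 the edgeR test counted 2 of the 10, both lower, against 9.63% of all genes lower and 5.97% higher. DESeq2 called 0 of the 10 at an adjusted p of 0.05, where it called 7.09% of the 12646 genes to which it gave an adjusted p. The median log2 difference (KD minus Scr) was -0.27 over the 10 genes and 0.02 over all genes tested.

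**Figure D1:**
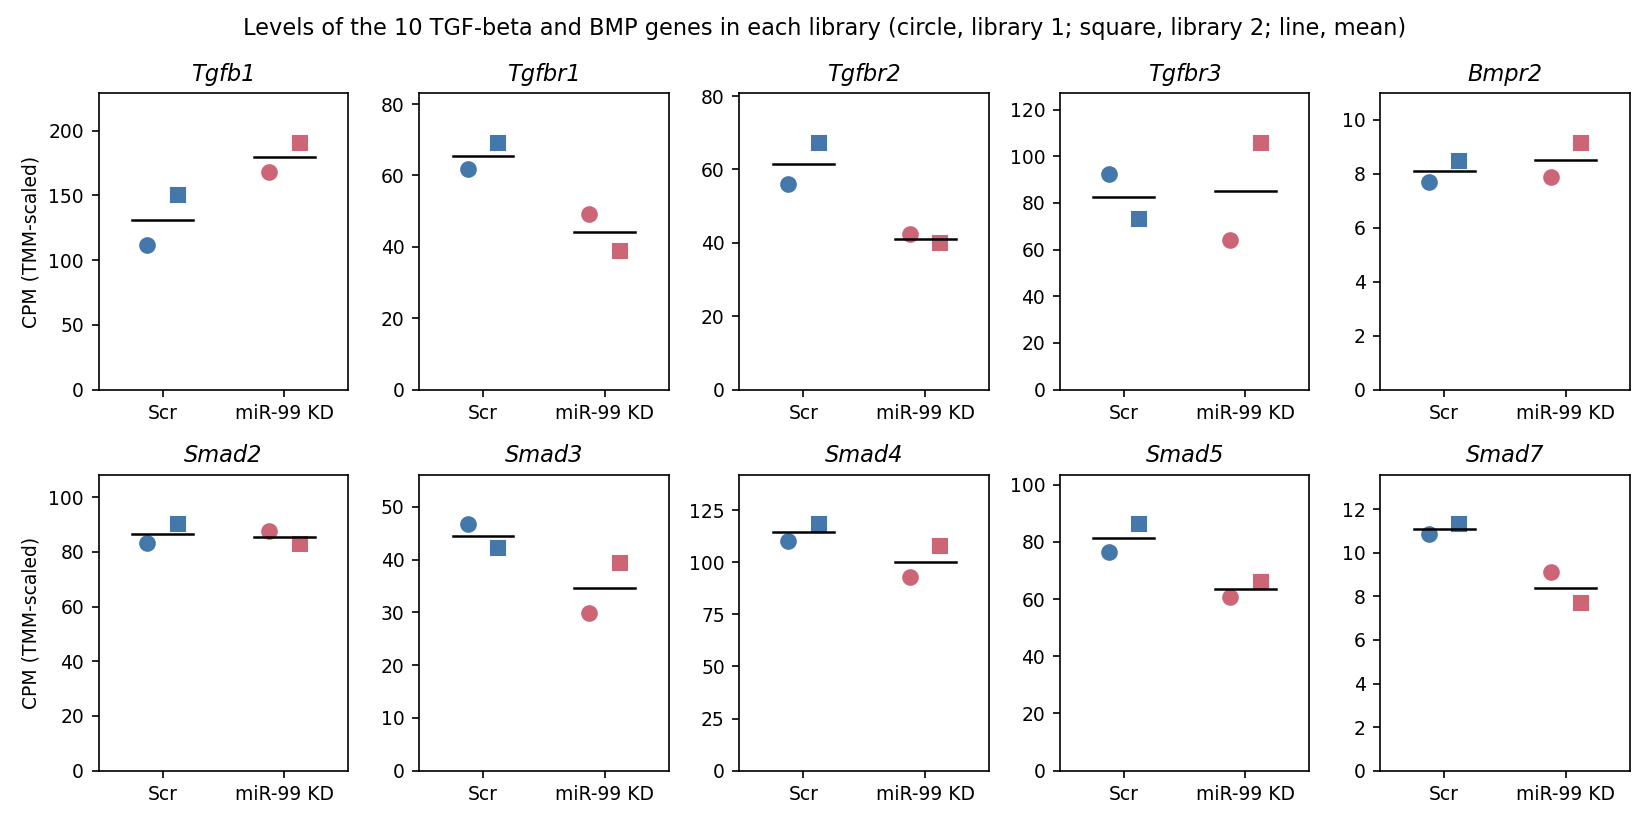
Level of each of the 10 genes in CPM (vertical axes, from 0) in the Scr libraries (blue) and the KD libraries (red); circles are library 1, squares library 2 and lines the group means. The red points lie below both blue points for Tgfbr1, Tgfbr2, Smad3, Smad4, Smad5 and Smad7 and above them for Tgfb1.

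The ligand Tgfb1 (ENSMUSG00000002603, chromosome 7) stood at 112 CPM in Scr 1, 150 in Scr 2, 168 in KD 1 and 191 in KD 2. Both KD libraries were above both Scr libraries, although Scr 2 was nearer to KD 1 than to Scr 1. The group means were 131 ± 27 CPM (SD, n = 2) in Scr and 179 ± 16 (SD, n = 2) in KD. The log2 difference was 0.45 ± 0.19 (SE), with a 95% interval of -0.02 to 0.93 and an edgeR adjusted p of 0.336. It was 0.23 without Scr 1 and 0.66 without Scr 2, so the size depended on which control was kept.

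The type I receptor gene Tgfbr1 (ENSMUSG00000007613, chromosome 4) stood at 61.7 CPM in Scr 1, 69.1 in Scr 2, 49.3 in KD 1 and 38.9 in KD 2. The groups did not overlap, and KD 2 was the lowest library. The means were 65.4 ± 5.3 CPM (SD, n = 2) and 44.1 ± 7.4 (SD, n = 2), a log2 difference of -0.57 ± 0.19 (SE) with a 95% interval of -1.04 to -0.10. Its edgeR p was 0.027 unadjusted and 0.276 adjusted, and the DESeq2 adjusted p was 0.115. The log2 difference was -0.41 without KD 2. Without KD 1, the library with the most neutrophil and B cell marker RNA, it was -0.75. DESeq2 called the gene in that fit and edgeR did not.

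The type II receptor gene Tgfbr2 (ENSMUSG00000032440, chromosome 9) stood at 55.9 CPM in Scr 1, 67.3 in Scr 2, 42.3 in KD 1 and 39.9 in KD 2. The KD libraries were close to each other and below both controls. The means were 61.6 ± 8.0 CPM (SD, n = 2) and 41.1 ± 1.7 (SD, n = 2), a log2 difference of -0.58 ± 0.17 (SE) with a 95% interval of -1.02 to -0.15. Its edgeR p was 0.018 unadjusted, the smallest of the 10 genes, and 0.251 adjusted, and the DESeq2 adjusted p was 0.0721. The difference was -0.63 without KD 1 and -0.46 without Scr 2. Leaving out Scr 1, Scr 2 or KD 2 ended the unadjusted edgeR count for 1 of the receptor genes or both. The log2 differences of Tgfbr1 and Tgfbr2 were -0.67 and -0.74 without Scr 1 and -0.50 and -0.46 without Scr 2. Without KD 2 they were -0.41 and -0.54.

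Tgfbr3 (ENSMUSG00000029287, chromosome 5), which encodes betaglycan, a co-receptor that presents ligand, stood at 92.4 and 73.0 CPM in Scr 1 and Scr 2 and at 64.3 and 106 in KD 1 and KD 2. The KD libraries were the lowest and the highest of the 4, so the groups overlapped completely. The log2 difference was 0.04 ± 0.28 (SE), with a 95% interval of -0.66 to 0.74, and it turned to -0.05 when library totals alone set the scale. Bmpr2 (ENSMUSG00000067336, chromosome 1), the type II receptor for BMPs, stood at 7.71, 8.48, 7.88 and 9.15 CPM in Scr 1, Scr 2, KD 1 and KD 2. Its log2 difference was 0.07 ± 0.26 (SE), with a 95% interval of -0.60 to 0.74, and it turned to -0.01 with totals alone. These intervals leave room for a difference as large as that of Tgfbr1 in Bmpr2 and in Tgfbr3.

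Of the Smads that carry the TGF-beta signal, Smad2 (ENSMUSG00000024563, chromosome 18) stood at 83.1, 90.2, 87.7 and 83.0 CPM in Scr 1, Scr 2, KD 1 and KD 2. The libraries interleaved, and the log2 difference was -0.02 ± 0.13 (SE) with a 95% interval of -0.36 to 0.32. Smad3 (ENSMUSG00000032402, chromosome 9) stood at 46.8, 42.2, 29.9 and 39.4 CPM in the same order. The groups did not overlap, but KD 2 was nearer to Scr 2 than to KD 1. Its log2 difference was -0.36 ± 0.20 (SE) with a 95% interval of -0.88 to 0.16 and an edgeR adjusted p of 0.437, and it was -0.18 without KD 1 and -0.57 without KD 2, at an unadjusted edgeR p of 0.0244. Whether Smad2 and Smad3 differ from each other in their response was not tested.

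Smad4 (ENSMUSG00000024515, chromosome 18), the shared partner of both branches, stood at 110, 118, 93.1 and 108 CPM in Scr 1, Scr 2, KD 1 and KD 2. Scr 1 and KD 2 were nearly equal, and the log2 difference was -0.19 ± 0.14 (SE) with an edgeR adjusted p of 0.551, and it was -0.09 without KD 1. Smad5 (ENSMUSG00000021540, chromosome 13), which carries the BMP signal, stood at 76.4, 86.3, 60.8 and 66.0 CPM in the same order. Both KD libraries were clearly outside the Scr range, with a log2 difference of -0.36 ± 0.15 (SE), a 95% interval of -0.74 to 0.02 and an edgeR adjusted p of 0.336. Smad7 (ENSMUSG00000025880, chromosome 18), the inhibitory Smad that blocks the type I receptor, stood at 10.8, 11.3, 9.10 and 7.72 CPM, on 205 to 363 counts. Its Scr values were close to each other and its log2 difference was -0.40 ± 0.25 (SE), with an edgeR adjusted p of 0.476.

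To set the genes beside each other, CPM was divided by the exon length of each gene in kilobases. On this level scale Tgfb1, at 22.2 to 37.8 CPM per kilobase over the 4 libraries, and Smad4, at 25.1 to 31.9, were at the top and overlapped each other with this length. Next came Tgfbr3 at 9.83 to 16.2, Smad2 at 9.46 to 10.3, Smad5 at 8.19 to 11.6, Tgfbr1 at 5.95 to 10.6, Smad3 at 5.40 to 8.44 and Tgfbr2 at 4.87 to 8.21, each overlapping the next. Smad7, at 1.71 to 2.51, lay below all of these in every library. Bmpr2 was the lowest, at 0.429 to 0.509. With the longest transcript as the length, Smad2 and Smad5 changed places and the other genes kept their order. The length of Tgfb1 was then 2.573 in place of 5.042 kilobases, and its level, at 43.5 to 74.1 CPM per kilobase, lay wholly above that of Smad4, at 27.5 to 35. Whether these top levels overlap therefore depends on the length used. The lengths come from GENCODE M21 and not from the annotation behind the counts.

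**Figure D2:**
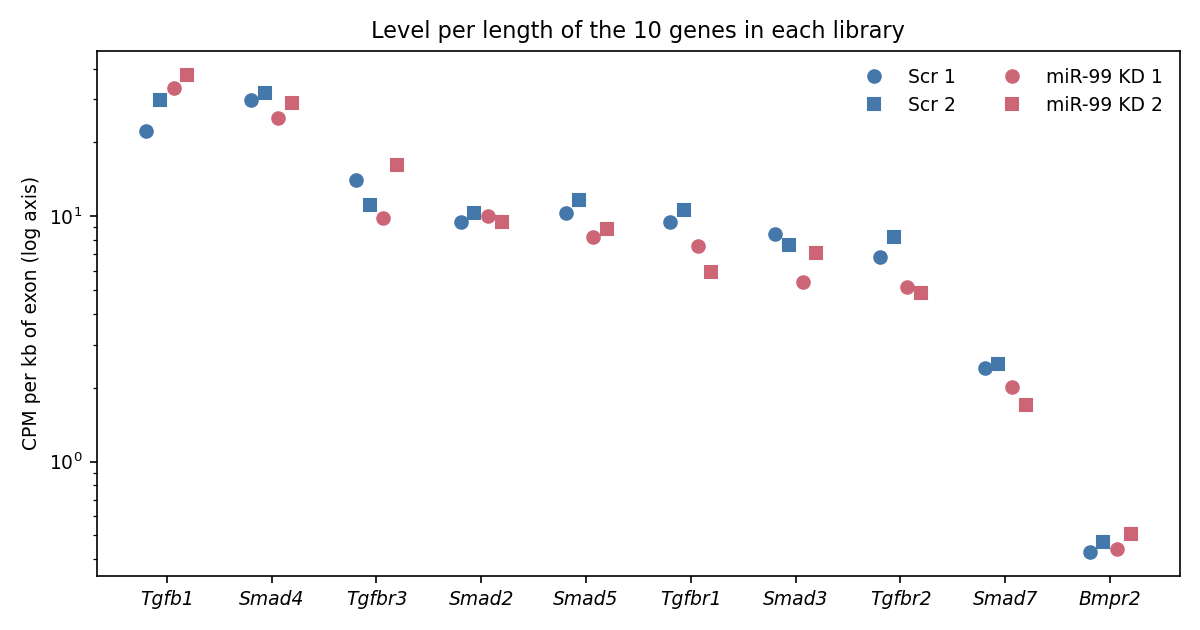
Level of the 10 genes in CPM per kilobase of exon (log axis), ordered by the mean over libraries, with Scr in blue and KD in red, circles for library 1 and squares for library 2. With this length Tgfb1 and Smad4 overlap at the top (with the longest transcript Tgfb1 lies above Smad4), Tgfbr3 to Tgfbr2 form a band of overlapping ranges, and Smad7 and Bmpr2 lie below it.

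Other genes of the pathway were taken from 6 lists, 75 genes in the files of which 64 passed the filter. These lists too were chosen with earlier results known, so their counts are descriptions. Genes shared between lists count once in these totals. Both KD libraries lay below both Scr libraries in 24 of these 64, above in 9 and overlapped in 31, where 26.0% of all genes lay below and 24.5% above, and the median log2 difference was -0.12. The edgeR test called 0 of the 64 at an adjusted p of 0.05 and counted 11 lower and 1 higher at an unadjusted p under 0.05, against 9.63% and 5.97% of all genes. DESeq2 called 7 lower and 0 higher of the 52 with an adjusted p, where it called 5.05% of all genes lower and 2.04% higher. The DESeq2 count fell without Scr 1 or Scr 2 and rose without KD 1, and the DESeq2 count over all genes did the same. The counts of each list given next are also to be read against the 26.0% of all genes lower and 24.5% higher in both KD libraries. DESeq2 calls in each list are to be read against the 5.05% of all genes called lower and 2.04% called higher. The genes named are up to 4 of each list with the smallest edgeR p.

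The other Smads had the lowest median of the lists, -1.11 over the 2 tested genes. Smad1 (ENSMUSG00000031681), which carries the BMP signal as Smad5 does, stood at 81.3 and 85.0 CPM in Scr 1 and Scr 2 and at 43.1 and 35.3 in KD 1 and KD 2. The groups were well apart, with a log2 difference of -1.08 ± 0.17 (SE), an edgeR adjusted p of 0.197 and a DESeq2 adjusted p of 3.1e-05. The DESeq2 log2 difference was -1.13 without Scr 1, -1.05 without Scr 2, -1.24 without KD 1 and -0.94 without KD 2. The DESeq2 call held without KD 1 or KD 2. It was lost without Scr 1 and without Scr 2, where calls over all genes also fell. Smad6, the inhibitory Smad of the BMP branch, was low at 4.72, 5.15, 2.50 and 2.00 CPM in Scr 1, Scr 2, KD 1 and KD 2, with a log2 difference of -1.13 ± 0.37 (SE), and was not called by DESeq2. Smad9 had 2 counts in all, in KD 1.

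Of 13 tested ligands and latent binding proteins, 5 were lower in both KD libraries, 2 higher and 6 overlapped, with a median log2 difference of 0.06. Ltbp3, a protein that binds latent TGF-beta, stood at 29.7 and 45.2 CPM in Scr 1 and Scr 2 and at 15.8 and 16.1 in KD 1 and KD 2. DESeq2 called it lower at an adjusted p of 0.0033. That DESeq2 adjusted p was 0.0494 without Scr 1 and 0.9996 without Scr 2, where the call was lost at a log2 difference of -0.89. Bmp1, a protease that processes matrix proteins, stood at 16.7, 18.8, 10.5 and 9.56 CPM and was called by neither test, nor was Ltbp4, at 3.35, 6.15, 2.46 and 2.30. Bmp7 had 16 and 15 counts in Scr 1 and Scr 2 and 0 in both KD libraries, 8.74-fold lower with the KD group set to a floor of 3 counts. Its edgeR adjusted p was 0.232 and DESeq2 gave it none. Counts of this size also fell to 0 within a group: Bmp4 had 18 and 0 in Scr 1 and Scr 2 and 32 and 0 in KD 1 and KD 2.

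Among 7 tested genes of TGF-beta activation, 2 were lower in both KD libraries, 0 higher and 5 overlapped, with a median of -0.11 and 0 called by either test on all 4 libraries. Itgav, an integrin chain that releases latent TGF-beta, stood at 33.0, 25.7, 20.6 and 22.3 CPM in Scr 1, Scr 2, KD 1 and KD 2. Nrros, which anchors latent TGF-beta on myeloid cells, stood at 264, 307, 252 and 162 CPM, a log2 difference of -0.46 that was -0.82 without KD 1 and -0.18 without KD 2. Without KD 1 both tests called Nrros lower, at an adjusted p of 0.0391 by edgeR and 7.1e-04 by DESeq2. Itgb6 was under 2 CPM in every library. Mmp9, a protease of neutrophil granules, stood at 119, 39.1, 330 and 16.0 CPM, highest in the library with the most neutrophil marker RNA, and its log2 difference turned from above 0 to -2.30 without that library.

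Among 9 tested further receptors and co-receptors, 2 were lower in both KD libraries, 1 higher and 6 overlapped, with a median of -0.23 and 0 called by either test. Acvr2b, a type II receptor for activins, stood at 4.81, 6.25, 2.08 and 2.90 CPM, a log2 difference of -1.15 ± 0.38 (SE). Acvrl1, a type I receptor, stood at 4.03, 1.03, 10.3 and 2.60 CPM and varied within both groups. Its log2 difference of 1.34 was 0.03 without KD 1 and 2.62 without Scr 1, with no call by either test. Rgmb, a BMP co-receptor, was under 1 CPM throughout. Bmpr1b, a type I receptor for BMPs, had 0 counts in both Scr libraries and 12 and 26 in the KD libraries, 15-fold higher with the Scr group set to the same floor. Its edgeR adjusted p was 0.227 and DESeq2 gave it none.

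Of 20 cofactors and regulators of Smads, 10 were lower in both KD libraries, 4 higher and 6 overlapped, with a median of -0.16. Fkbp1a, a binding protein that holds the type I receptor inactive, stood at 190 and 218 CPM in Scr 1 and Scr 2 and at 129 and 83.9 in KD 1 and KD 2, a log2 difference of -0.94 ± 0.24 (SE). Smurf1, a ubiquitin ligase of the BMP branch, stood at 23.3, 29.0, 13.9 and 12.9 CPM. Tgif1, a repressor that binds Smads, stood at 56.8, 70.1, 36.6 and 41.7 CPM. Of the 17 cofactors with an adjusted p, DESeq2 called these 3 lower, at adjusted p of 0.0087, 0.0143 and 0.0342, and 0 higher. The DESeq2 log2 differences of Fkbp1a, Smurf1 and Tgif1 were -0.94, -0.97 and -0.70 on all libraries. They were -1.05, -1.13 and -0.86 without Scr 1 and -0.83, -0.80 and -0.53 without Scr 2. All 3 calls were lost in these 2 fits, where calls over all genes also fell. The DESeq2 log2 difference of Fkbp1a was -1.28 without KD 1 and -0.665 without KD 2. Without KD 2 the DESeq2 calls of Smurf1 and Tgif1 were lost too, at 0.133 and 0.0513, and without KD 1 that of Tgif1, at 0.118. Ep300, an acetyltransferase that Smads recruit, stood at 86.9, 89.8, 104 and 122 CPM and was called by neither test.

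Of 17 tested response genes, 6 were lower in both KD libraries, 2 higher and 9 overlapped, with a median of -0.04, close to the 0.02 of all genes. Some are counted in an earlier list as well. Tgif1, Pmepa1 and Skil are also among the cofactors and Smad6 among the other Smads, and of these all but Skil were lower in both KD libraries. Of the 15 with an adjusted p, DESeq2 called 3 lower, Cdkn1c, Junb and Tgif1, and 0 higher. Junb, an AP-1 subunit that TGF-beta induces, stood at 385 and 470 CPM in Scr 1 and Scr 2 and at 299 and 250 in KD 1 and KD 2, at a DESeq2 adjusted p of 0.0238. Cdkn1c, a cell cycle inhibitor that TGF-beta raises in stem cells, stood at 9.44, 10.1, 2.24 and 2.67 CPM, a log2 difference of -1.99 ± 0.30 (SE) with an edgeR adjusted p of 0.197. Without Scr 1 the DESeq2 adjusted p was 0.375 for Cdkn1c and 0.225 for Junb, without Scr 2 it was 0.884 and 0.9996, and without KD 2 that of Junb was 0.0898, so these calls were lost.

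**Figure D3:**
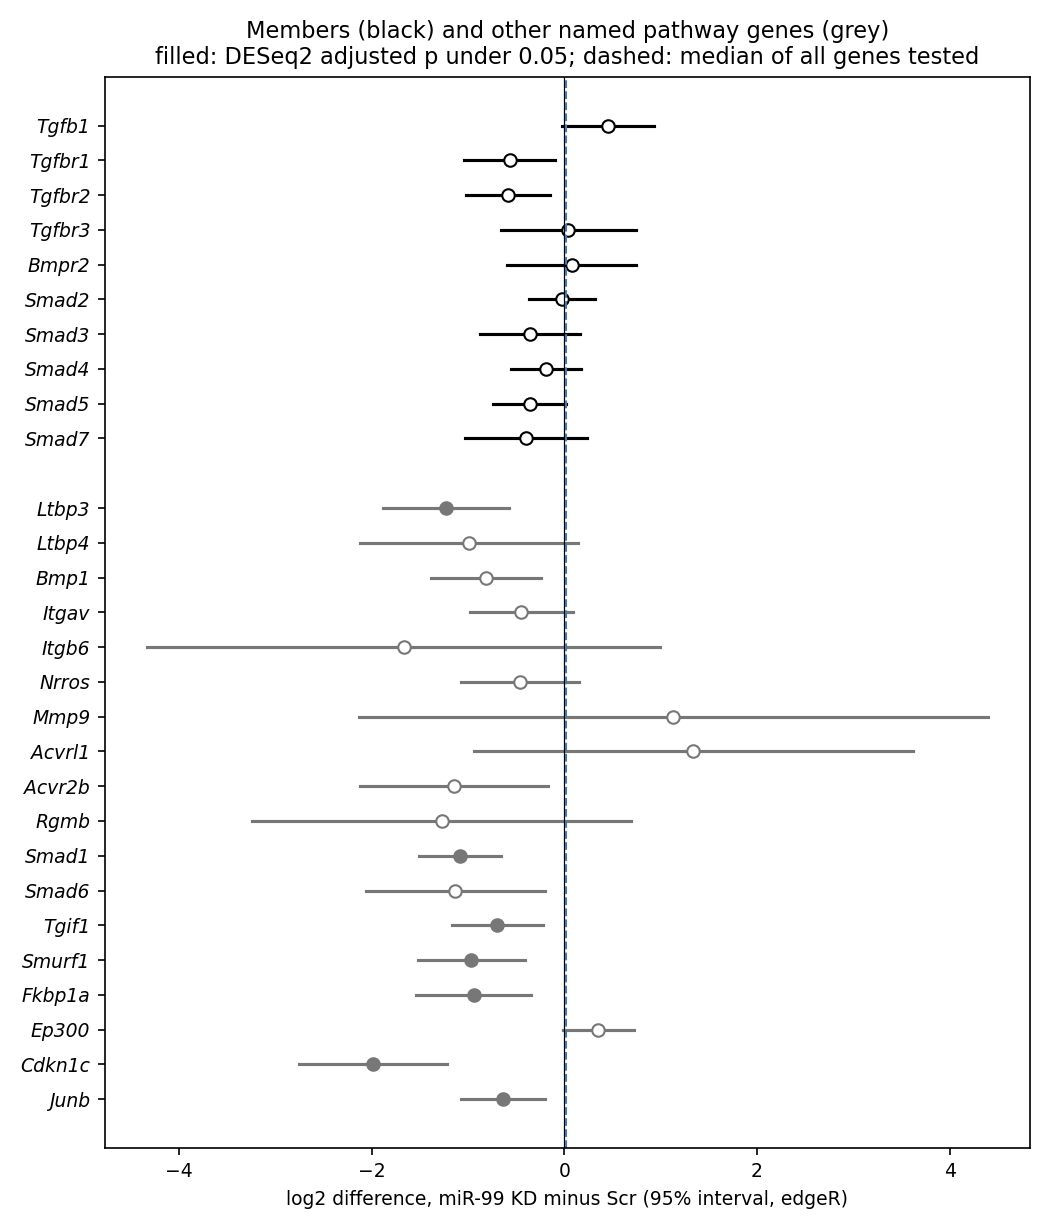
Log2 difference, KD minus Scr, with 95% intervals from edgeR for the 10 genes (black) and the other named pathway genes (grey); filled points have a DESeq2 adjusted p under 0.05 and the dashed line is the median of all genes tested. No black point is filled, and the filled grey points, Ltbp3, Smad1, Tgif1, Smurf1, Fkbp1a, Cdkn1c and Junb, all lie below 0. Bmp7 and Bmpr1b, at 0 in a group, are not drawn.

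Markers of cell identity also differed between the groups, and their counts stand against 26.0% of all genes lower in both KD libraries and 24.5% higher. Of 12 stem cell markers 7 were lower in both KD libraries, 1 higher and 4 overlapped, and DESeq2 called 5 lower. Their summed CPM was 903 to 1064 in Scr and 455 to 588 in KD. The 4 markers of the sorted LSK fraction were lower in both, at 2020 to 2558 and 1153 to 1154 summed CPM, and DESeq2 called 3 lower. Of 9 erythroid markers 8 were higher in both and 1 overlapped, at 8698 to 8972 and 12810 to 15210 summed CPM, and DESeq2 called 5 higher. Over all genes DESeq2 called 5.05% lower and 2.04% higher. Taking each gene as log2 CPM relative to its own 4-library mean, the median over the 10 genes was 0.12 in Scr 1, 0.13 in Scr 2, -0.16 in KD 1 and -0.02 in KD 2. The part of these shifts in the values of the receptors and Smads was not tested. Of 8 tested endothelial and stromal markers 4 were lower in both KD libraries and 0 higher, DESeq2 called 1 lower, and their summed CPM was 158 to 187 in Scr and 96.8 to 177 in KD. In other lists the groups overlapped: the summed CPM of megakaryocyte markers was 198 to 341 in Scr and 224 to 229 in KD, and that of macrophage markers 183 to 398 and 272 to 543. T and NK cell markers summed to 1.17 to 7.69 CPM over the 4 libraries, and Cd3e, Cd3g, Cd8a, Ncr1 and Gzma were at 0 counts in at least 1 library, as were Gp6 of the megakaryocyte list and Cdh5 and Kdr of the endothelial list.

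**Figure D4:**
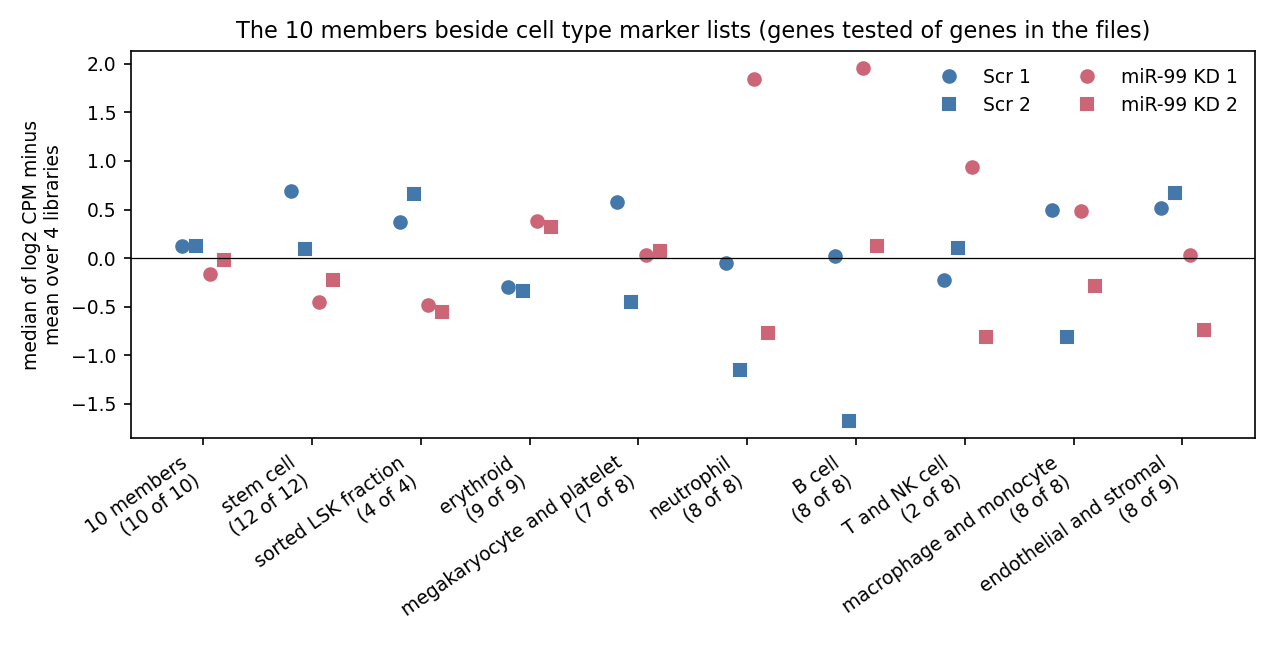
Median log2 CPM relative to the 4-library mean of each gene (vertical axis) for the 10 genes and for 9 marker lists, with Scr in blue and KD in red, circles for library 1 and squares for library 2. The 10 genes, the stem cell list and the sorted LSK list are lower in both red points than in both blue points, the endothelial and stromal list is lower too, the erythroid and B cell lists are higher, and KD 1 stands highest for neutrophil and B cell markers.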

How the data were processed

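Total RNA of sorted cells was amplified with SMARTer, a PCR method for little input, and sequenced, per the labels' protocols. The authors deposited raw counts of reads per gene, 1 file per library, made with STAR, Picard, HTSeq and DESeq2 on build mm9, per the submitters' processing notes. Strand setting, annotation and tool versions: not given in the sources used here. Without molecular identifiers, PCR copies are counted too. Rows that name no gene were left out: reads with no feature were 8.31% to 13.8% of reads per library and reads with several alignments 18.0% to 21.9%. Totals pasted below the gene rows were not used.

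Symbols came from GENCODE M21 for 44585 of 45232 rows. The main test was edgeR 4.0.16 in R 4.3.3 (filterByExpr, TMM, quasi-likelihood, Benjamini-Hochberg over all 15320 genes); SE and intervals come from that fit. Alternatives were DESeq2 1.42.0, limma-voom (limma 3.58.1), 3 scalings, no filter, 10 CPM in 2 libraries, dropping globin, ribosomal protein and mitochondrial genes, a replicate block and leaving out each library. DESeq2 gave 2674 genes no adjusted p. The fits were tested on simulated data. For seed matches, the longest 3′ untranslated region of each gene was taken from GENCODE M21, with a minimum of 50 bases, and promoters came from RefSeq.

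The members and lists were chosen with earlier results of these data known. Named were all 10 genes and, of each pathway list, up to 4 with the smallest edgeR p. No gene is named for likeness of pattern, since 4 libraries are too few.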

Additional observations from a re-analysis of the deposited data

How the results depend on the processing

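The edgeR test called 0 of the 10 genes under every scaling, filter, block and library left out, and limma-voom, run once on all libraries, called 0. DESeq2, run on all libraries, with the block and without each library, called 0 to 1, the 1 being Tgfbr1 without KD 1. The signs of Tgfb1, Tgfbr1, Tgfbr2, Smad3, Smad4, Smad5 and Smad7 did not change in any alternative run. The log2 difference ranged from -0.75 to -0.41 for Tgfbr1, -0.74 to -0.46 for Tgfbr2 and 0.23 to 0.66 for Tgfb1 over libraries left out. The values near 0 changed sign: Tgfbr3 was -0.046 and Bmpr2 -0.013 with library totals alone, and without each library Tgfbr3 ran from -0.36 to 0.35, Bmpr2 from -0.036 to 0.17 and Smad2 from -0.11 to 0.023. Mmp9, above 0 on all libraries, ran from -2.30 to 2.14. The count of the 10 genes lower in both KD libraries was 6 or 7 throughout, and that at an unadjusted p under 0.05 was 1 to 3 without each library, 1 without Scr 1 and 1 without Scr 2. Over all genes edgeR called 0, 1064 with no filter and 0 to 1013 without each library, 1013 without KD 1 and 437 without KD 2; genes at an unadjusted p under 0.05 numbered 783 to 4342. DESeq2 called 896 genes, and 27 to 1547 without each library. Of the other pathway genes, edgeR called 10 with no filter and 0 to 7 without each library, 7 without KD 1 and 5 without KD 2, and DESeq2 called 7, and 0 to 10 without each library. A fit with replicate number as a block gave 0 genes by edgeR, 0 of the 10 among them, and by DESeq2 391, 4 of them other pathway genes; the deviations of same-numbered libraries correlated at 0.0567, and pairing was not assumed. The DESeq2 fits without each library and with the block were chosen after seeing the data. A fit that leaves 1 library on a side assumes that it varies as the other side does. The cause of these changes was not tested.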

Other observations

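Several BMP and TGF-beta response genes and the ligand gene Inhba, chosen after their values were seen, were highest in KD 1. Id1, a direct BMP target, had 71 and 38 counts in Scr 1 and Scr 2 and 168 and 23 in KD 1 and KD 2, and its groups overlapped. Id2 had 938, 461, 2222 and 558 counts in the same order, Ccn2, a target of TGF-beta, 17, 17, 144 and 14, and the activin subunit gene Inhba 80, 40, 333 and 40, all with overlapping groups. Id3 had 135, 88, 257 and 121 counts, which in CPM put both KD libraries above both Scr libraries. Neither edgeR nor DESeq2 called any of the 5 genes. The neutrophil and B cell marker lists were highest in the same library, and their part in these values was not tested.

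Some files carry pasted totals with other library names below the gene rows. The total of Scr 1 stands there under a name ending in 2, and those of KD 1 and KD 2 under names ending in 2 and 1. A further Scr total of 29793890 matches none of the 4 libraries.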
